A study of Mus musculus with 12 samples.

Results

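Prostaglandin synthesis genes and annexin A1 (Anxa1) were followed in fibroblasts from mouse hindlimb muscle. The 10 genes were taken by exact match of the gene name (Pla2g4a, Ptgs1, Ptgs2, Ptges, Ptgis, Ptgds, Hpgd, Ptger2, Ptger4 and Anxa1), and 9 of the 10 had a row among the 28995 genes in the tables. Ptgds was not analysed here. The cells were primary fibroblasts of neonatal hindlimb skeletal muscle from wild-type C57 BL/10 mice of 3 postnatal days, enriched by adherence to plastic, and no group carried an altered allele. In every group the medium held charcoal-stripped serum, which removes steroids, from the day before treatment. The 3 groups then received for 48 hours either 1 µM aldosterone, a ligand of the mineralocorticoid receptor, 1 µM spironolactone, a mineralocorticoid receptor antagonist, or the DMSO vehicle. Each group had 4 poly(A) RNA libraries from 2 mice, with 2 plates per mouse and treatment.

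Prostaglandins are made when a phospholipase A2 frees arachidonic acid from membranes, cyclooxygenases convert it to the intermediate prostaglandin H2, and terminal synthases turn that into one of several end products. Secreted prostaglandins act on receptors of the cell surface and are taken up and inactivated by dehydrogenases. Annexin A1 is a calcium-dependent phospholipid-binding protein, long known as a glucocorticoid-responsive restraint on phospholipase A2 and, once released, as a ligand of formyl peptide receptors. In muscle, these lipids are best known from inflammation and regeneration, to which fibroblasts contribute.

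In the fibroblasts given aldosterone, 3 of the 9 genes rose and 2 fell relative to vehicle. Anxa1, the prostacyclin synthase gene Ptgis and the dehydrogenase gene Hpgd rose 1.98-fold, 1.85-fold and 1.77-fold. The inducible cyclooxygenase gene Ptgs2 and the cytosolic phospholipase gene Pla2g4a fell 3.04-fold and 1.94-fold. The other 4 genes (Ptgs1, Ptges, Ptger2 and Ptger4) were not called, at a limma adjusted p of at most 0.05 over all 27319 genes tested. For comparison, 5.68% of all genes tested were higher and 4.74% were lower by the same rule. Of the better expressed genes (a mean normalized count of 10 or more), 9.65% were higher and 8.09% lower. With a log2 fold change of at least 1 in size also required, 0 of the 9 were higher and 1, Ptgs2, was lower, against 1.4% and 0.666% of all genes. The median log2 fold change of the 9 genes was 0.05 and that of all genes was -0.01. In these bulk libraries, fewer cells of a type and less RNA per cell cannot be told apart.

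The libraries held between 19136923 and 30219185 reads on genes. Fkbp5, Tsc22d3 and Per1, known targets of steroid receptors, were 19.2-fold, 6.45-fold and 3.55-fold higher with aldosterone, with no overlap between groups, so the treatment labels stood up to this check. All 10 fibroblast markers had reads, while Ptprc, Adgre1 and Aif1 of the 10 macrophage markers never passed 3 reads in a library and 2 more (Itgam and C1qa) had no row. Pax7, Myf5, Myog and Ckm of the myogenic list also stayed at 3 reads or fewer. The macrophage markers still summed to 13.1 to 15.3 CPM (reads scaled to the library total) with vehicle. With spironolactone they summed to 12.5 to 15.5 CPM and with aldosterone to 13.9 to 15.0 CPM, where 1 was called higher. The myogenic markers summed to 3.18 to 6.03 CPM with vehicle, 3.87 to 6.23 with spironolactone and 2.73 to 4.96 with aldosterone. The part of such cells in the results was not tested.

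Values are given below as normalized counts, which are reads divided by a size factor of the library, in the order sample number 1 (replicates 1 and 2) and sample number 2 (replicates 1 and 2). The sample number is part of the library labels, which do not say whether it marks the mouse. Fold changes were fitted on log2(normalized count + 1).

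The promoter windows of the pair of genes that fell and of the gene with the largest rise are shown. Each of these genes was called between aldosterone and both other groups, and the motifs of steroid and inflammatory regulators were looked for in the windows. The sequences are from RefSeq on GRCm38.p6 and cover the 250 bases before the annotated start, 5′ to 3′ on the strand of the gene, with the letters of any motif found in capitals. For Pla2g4a, which had a pair of starts in RefSeq, the outer one is shown.
Ptgs2, chr1:150099781-150100030, plus strand: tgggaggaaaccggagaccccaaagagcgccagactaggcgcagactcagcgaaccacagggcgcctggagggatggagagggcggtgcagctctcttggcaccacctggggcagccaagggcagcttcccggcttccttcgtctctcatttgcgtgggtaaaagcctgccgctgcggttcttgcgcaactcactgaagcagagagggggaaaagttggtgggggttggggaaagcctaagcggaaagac
Pla2g4a, chr1:149961291-149961540, minus strand: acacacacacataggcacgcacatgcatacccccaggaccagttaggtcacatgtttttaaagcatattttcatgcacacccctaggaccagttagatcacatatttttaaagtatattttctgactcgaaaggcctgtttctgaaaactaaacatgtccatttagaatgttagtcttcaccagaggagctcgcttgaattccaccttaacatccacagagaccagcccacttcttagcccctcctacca
Anxa1, chr19:20390672-20390921, minus strand: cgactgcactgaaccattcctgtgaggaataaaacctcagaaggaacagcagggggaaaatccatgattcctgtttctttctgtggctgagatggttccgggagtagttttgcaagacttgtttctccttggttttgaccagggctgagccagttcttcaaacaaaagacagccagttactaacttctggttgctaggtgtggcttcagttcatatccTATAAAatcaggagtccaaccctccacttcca
The capitals mark the letters TATAAA, the core of the promoter element that binds the TATA-binding protein, which begin 32 bases before the start of Anxa1 (position -32). Of the 9 genes, 8 had a window in RefSeq, in 9 windows of 300 bases each (the 250 bases before the start and 50 after it), and Ptgis had none. On both strands of these windows, 0 of 9 held the glucocorticoid response element (the half-sites GNACA and TGTNC set 3 bases apart), the AP-1 site TGANTCA, the cyclic AMP response element TGACGTCA or the NF-kB letters (GGG and TNCC set 3 bases apart). These were present in 0.475%, 7.81%, 1.79% and 17.4% of all 32851 windows. TATAAA was in 13.6% of all windows and in 3 of the 9, which were those of Anxa1, Hpgd and the inner start of Pla2g4a. For Hpgd the letters lay downstream of the start (position 5) and for Pla2g4a at position -200, so neither shared the position of those of Anxa1. A match is a description of letters and not of a bound site, and these windows do not reach distal elements.

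Pla2g4a encodes the cytosolic phospholipase A2 that releases arachidonic acid. It lies on the minus strand at chr1:149705369-149837041 of mm39, the build named in the submitters' processing notes. Its normalized counts were 1462, 1525, 1085 and 1024 with vehicle. They were 1368, 1371, 999 and 981 with spironolactone, and 711, 731, 544 and 624 with aldosterone. Each aldosterone library was below each vehicle and spironolactone library, and within every treatment both libraries of sample number 1 were above both of sample number 2. The mean was 1274 ± 256 (SD, n = 4) with vehicle and 652 ± 85.8 with aldosterone, a log2 fold change of -0.95 (SE 0.12, limma adjusted p = 5.2e-05). Against spironolactone the log2 fold change was -0.84 (SE 0.12, limma adjusted p = 7.2e-05).

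Cyclooxygenases catalyse the committed step. Ptgs1, the constitutive form, had 745, 773, 589 and 643 normalized counts with vehicle. Aldosterone libraries had 725, 744, 628 and 617, within that range, and spironolactone libraries had 641, 735, 612 and 718. The log2 fold change between aldosterone and vehicle was -0.02, with a 95% interval of -0.21 to 0.18.

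Ptgs2, the inducible form of the enzyme (plus strand, chr1:149975782-149983978 in mm39), had 1315, 1433, 621 and 704 normalized counts with vehicle. The spironolactone libraries had 1154, 1302, 638 and 689. With aldosterone the values were 466, 445, 224 and 206. The groups did not overlap, although the highest aldosterone library (466) was not far below the lowest vehicle library (621). The mean fell from 1018 ± 415 to 335 ± 139 (SD, n = 4), a log2 fold change of -1.60 (SE 0.28, 95% interval -2.19 to -1.01, limma adjusted p = 0.00091). Against spironolactone it was -1.52 (SE 0.25, limma adjusted p = 0.00052).

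Most of the spread of Ptgs2 within a treatment followed the sample number. Libraries of sample number 1 had 2.07 times the normalized count of sample number 2 with vehicle, 1.85 times with spironolactone and 2.12 times with aldosterone. Within sample number 1 the log2 fold change between aldosterone and vehicle was -1.59, and within sample number 2 it was -1.62. The difference between these effects was -0.02, with a 95% interval of -0.31 to 0.26. With a replicate block on the sample number, whose libraries deviate together across treatments, the limma adjusted p was 4.0e-18. With the plates of each sample number summed, which leaves 2 values per treatment, the call was lost at a log2 fold change of -1.61 (limma adjusted p = 0.079, and 0.11 against spironolactone), and in sample number 1 alone the limma adjusted p was 0.051. Without the block the call was lost when either vehicle library of sample number 1 or either aldosterone library of sample number 2 was left out, with adjusted p between 0.0749 and 0.0854 and log2 fold changes between -1.40 and -1.45. Against spironolactone it was lost without either of the same aldosterone libraries or either spironolactone library of sample number 1 (limma adjusted p from 0.0720 to 0.0981). The summed level of the 5 mural and smooth muscle markers was 514 to 735 CPM (reads scaled to the library total) with vehicle, 526 to 753 with spironolactone and 378 to 602 with aldosterone, with 0 of the 5 called. The 10 fibroblast markers summed to 49167 to 53897 CPM with vehicle, 45896 to 51644 with spironolactone and 42448 to 46805 with aldosterone, so aldosterone lay below vehicle without overlap, with 2 markers called higher and 1 lower. The part of these shifts in the lower Ptgs2 and Pla2g4a was not tested.

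**Figure D1:**
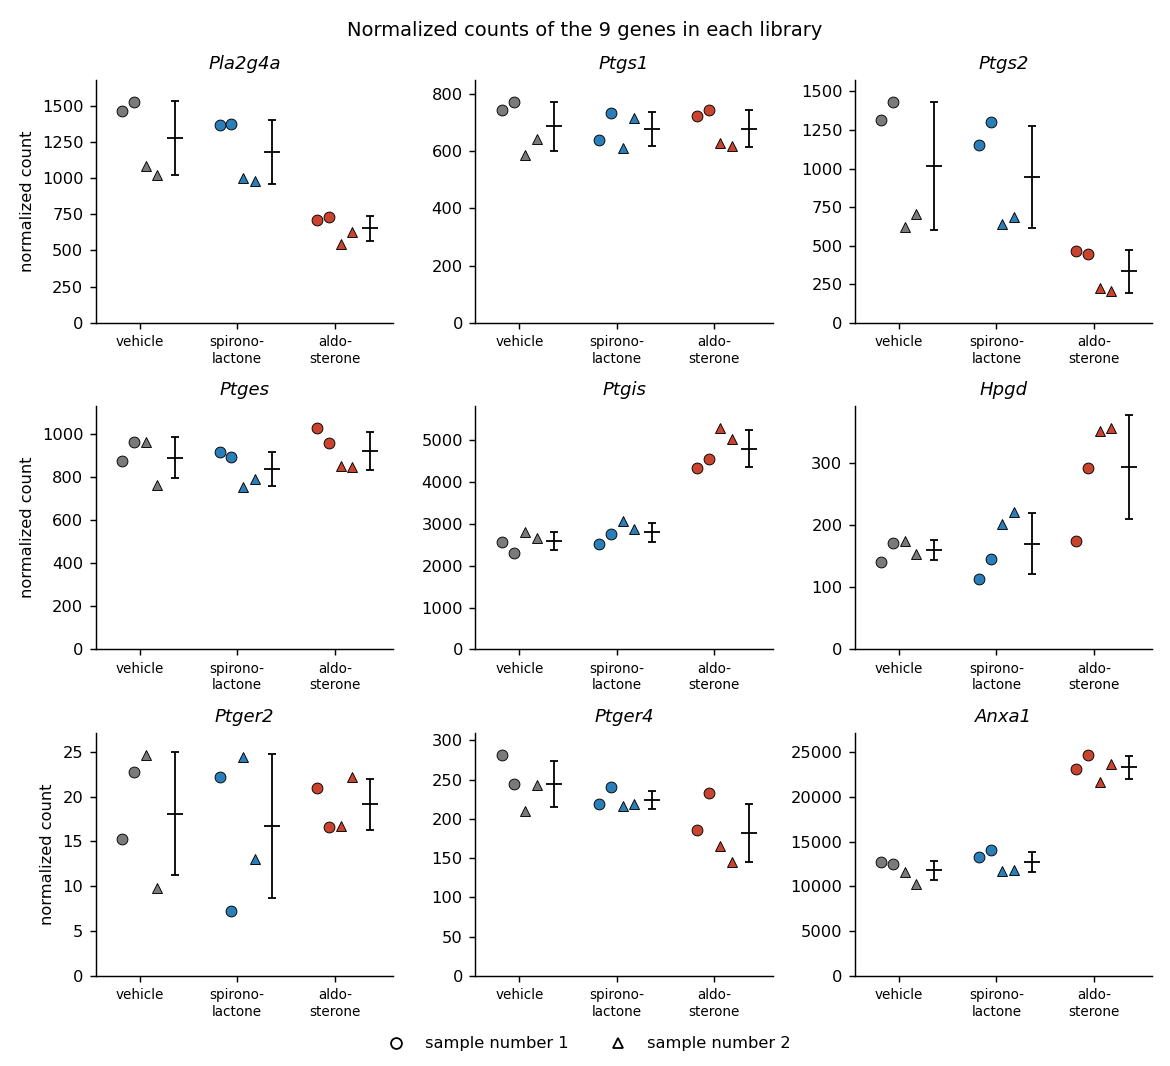
Normalized count (y axis, from 0) of each of the 9 genes in the 12 libraries by treatment (x axis). Circles are sample number 1, triangles sample number 2, and the bar beside each group is the mean with its SD over 4 libraries. Anxa1 and Ptgis sit higher and Pla2g4a and Ptgs2 lower in all 4 aldosterone libraries, and circles lie above triangles in each treatment for Ptgs2.

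Because Ptgs2 was lower and Ptgs1 was not called, the balance of the cyclooxygenase transcripts was computed per length, as RPKM, which divides reads by the length of the gene and by the reads on all genes of the library. Ptgs2 made up 59.9%, 61.1%, 47.2% and 48.1% of the summed Ptgs1 and Ptgs2 RPKM with vehicle. With spironolactone its share was 60.4%, 60.0%, 46.9% and 44.9%. With aldosterone it was 35.3%, 33.7%, 23.3% and 22.0%. All aldosterone libraries were below all others, so Ptgs2 was the more abundant cyclooxygenase transcript in the libraries of sample number 1 without aldosterone and the less abundant one in all 4 with it. The mean share was 54.1 ± 7.45% with vehicle and 28.6 ± 6.88% with aldosterone (SD, n = 4). No test is given, since the share was computed because Ptgs2 had fallen and Ptgs1 had not.

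Terminal synthases decide the end product. Ptges, the microsomal prostaglandin E synthase gene, had 876, 963, 963 and 762 normalized counts with vehicle. It had 918, 894, 755 and 792 with spironolactone, and 1027, 958, 850 and 849 with aldosterone. The ranges overlapped, and the log2 fold change between aldosterone and vehicle was 0.05 with a 95% interval of -0.13 to 0.23. Ptgis, which makes prostacyclin (minus strand, chr2:167033725-167082524 in mm39), had 2570, 2307, 2819 and 2670 with vehicle. The spironolactone libraries had 2522, 2754, 3061 and 2877. The aldosterone libraries had 4340, 4564, 5290 and 5032, all above both other groups. The mean rose from 2592 ± 215 to 4806 ± 432 (SD, n = 4), a log2 fold change of 0.89 (SE 0.07, limma adjusted p = 3.2e-07), and it was 0.78 against spironolactone (SE 0.07, limma adjusted p = 7.1e-07). Endothelial cells are a well known source of Ptgis, and the summed level of the 7 endothelial markers was 21.9 to 24.1 CPM with vehicle, 21.8 to 23.7 with spironolactone and 30.0 to 31.7 with aldosterone. Of these 7 markers 1 was called higher, none was lower, and the part of such cells in the Ptgis result was not tested.

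The ratio of Ptgis to Ptges in RPKM was 4.49, 3.67, 4.48 and 5.37 with vehicle. It was 4.21, 4.72, 6.21 and 5.56 with spironolactone, and 6.47, 7.29, 9.53 and 9.08 with aldosterone. No aldosterone library overlapped either other group. Spironolactone and vehicle overlapped, at 5.17 ± 0.889 and 4.50 ± 0.693 (SD, n = 4). This ratio was likewise formed with the rise of Ptgis known and is a description.

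**Figure D2:**
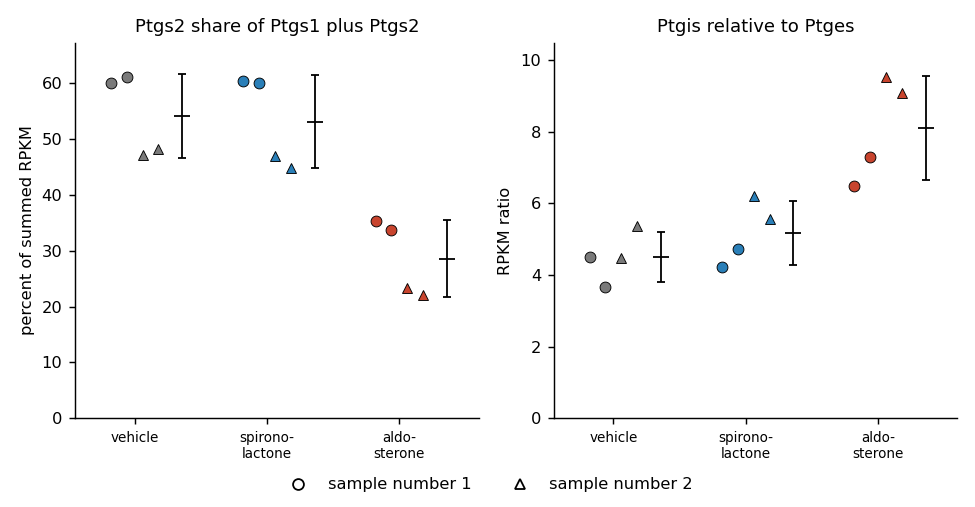
Left, Ptgs2 as a percentage of the summed RPKM of Ptgs1 and Ptgs2, and right, the RPKM of Ptgis divided by that of Ptges, both axes from 0. Points are the 12 libraries by treatment and sample number, and bars give the mean and SD over 4 libraries. The aldosterone libraries lie at 22.0% to 35.3% on the left and at 6.47 to 9.53 on the right, apart from both other groups.

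Hpgd encodes 15-hydroxyprostaglandin dehydrogenase, which inactivates prostaglandins. Its normalized counts were 141, 171, 174 and 154 with vehicle. They were 114, 145, 202 and 221 with spironolactone, and 175, 293, 351 and 356 with aldosterone. The lowest aldosterone library (175.4) barely cleared the highest vehicle library (174.0) and lay below a pair of spironolactone libraries. The mean rose from 160.0 ± 15.4 to 294 ± 84.1 (SD, n = 4), a log2 fold change of 0.82 (SE 0.18, limma adjusted p = 0.0055), and against spironolactone it was 0.78 (SE 0.21, limma adjusted p = 0.028). Within sample number 1 the log2 fold change from vehicle was 0.54 and within sample number 2 it was 1.11. The difference between them was 0.56 (95% interval -0.03 to 1.16, limma adjusted p = 0.89), so the effects were not shown to differ. The call did not survive leaving out any library except replicate 1 of sample number 1 with aldosterone (limma adjusted p from 0.0731 to 0.129 in the other 7), and against spironolactone it was likewise kept only without that library (0.135 to 0.306 in the other 7), while with the replicate block the limma adjusted p was 1.3e-05.

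Ptger2 and Ptger4 encode the Gs-coupled receptors of prostaglandin E2. Ptger2 was close to the limit of detection, with 9 to 28 reads in every library and normalized counts from 7.2 to 24.7. Its ranges overlapped among all treatments, and the 95% interval of the log2 fold change between aldosterone and vehicle ran from -0.59 to 0.88, so a change of moderate size was not detectable at this depth. The antisense lncRNA Gm17173 overlaps Ptger2 and had 8 to 24 reads per library, about as many as Ptger2 itself, so the value of Ptger2 is uncertain. Ptger4 had 282, 245, 210 and 243 normalized counts with vehicle, then 218, 240, 217 and 219 with spironolactone and 186, 232, 165 and 145 with aldosterone. The aldosterone values were mostly at the low end, but the groups overlapped, and the log2 fold change of -0.44 (SE 0.14) was not called against vehicle (limma adjusted p = 0.052). With the replicate block it was called lower than vehicle (limma adjusted p = 0.0024) and than spironolactone (limma adjusted p = 0.039), which made 3 higher and 3 lower of the 9 genes in each comparison. By the blocked fit 8.68% of all genes were higher and 8.02% lower than vehicle, and 7.58% and 6.8% than spironolactone. With the plates of each sample number summed Ptger4 was not called (log2 fold change -0.44, limma adjusted p = 0.30, and 0.52 against spironolactone). It was called without the block when leaving out replicate 2 of sample number 1 with aldosterone (limma adjusted p = 0.039 and 0.046). Ptger4 lies opposite the protein-coding gene Ttc33, which had 294 to 614 reads per library and a log2 fold change of 0.05. Since strand use in the counting was not given in the sources used here, reads of this pair may not be fully separated.

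Anxa1 (minus strand, chr19:20350792-20368308 in mm39) had 12701, 12508, 11570 and 10312 normalized counts with vehicle. The spironolactone libraries had 13255, 14038, 11721 and 11803. The aldosterone libraries had 23093, 24709, 21712 and 23647, which were all well above the other 8. The mean rose from 11773 ± 1092 to 23290 ± 1248 (SD, n = 4), a log2 fold change of 0.99 (SE 0.07, limma adjusted p = 5.4e-08), and against spironolactone the log2 fold change was 0.88 (SE 0.07, limma adjusted p = 1.1e-07). The log2 fold change within sample number 1 was 0.92 and within sample number 2 it was 1.05, with a difference of 0.13 (95% interval -0.06 to 0.33). Each sample number alone, with 2 libraries per treatment, gave a limma adjusted p of 0.051 against vehicle, and with plates summed it was 0.0017. The lncRNA annotated opposite Anxa1, 1500015L24Rik, never passed 2 reads.

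Levels per length show how unequal these transcripts were. With vehicle, Anxa1 had 169 ± 14.0 RPKM and was above 99.2% of 26515 genes, and Ptgis had 42.4 ± 3.83 RPKM. Ptges, Ptgs2, Pla2g4a and Ptgs1 followed at 9.50, 9.29, 8.34 and 7.42 RPKM, and each of these 4 overlapped its neighbour in the order. Hpgd (3.99 RPKM), Ptger4 (1.54 RPKM) and Ptger2 (0.146 RPKM) came next, each separated from the gene above it. With spironolactone the order of the 9 genes was the same as with vehicle. With aldosterone, Anxa1 reached 326 ± 16.1 RPKM and Ptgis 76.3 ± 8.34. Hpgd moved up to the fourth place at 7.14 RPKM and overlapped Ptgs1 (7.10 RPKM), while Pla2g4a (4.15 RPKM) and Ptgs2 (2.96 RPKM) had lower means than both. Pla2g4a overlapped Ptgs2 and also Hpgd, whose lowest library had 4.16 RPKM.

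**Figure D3:**
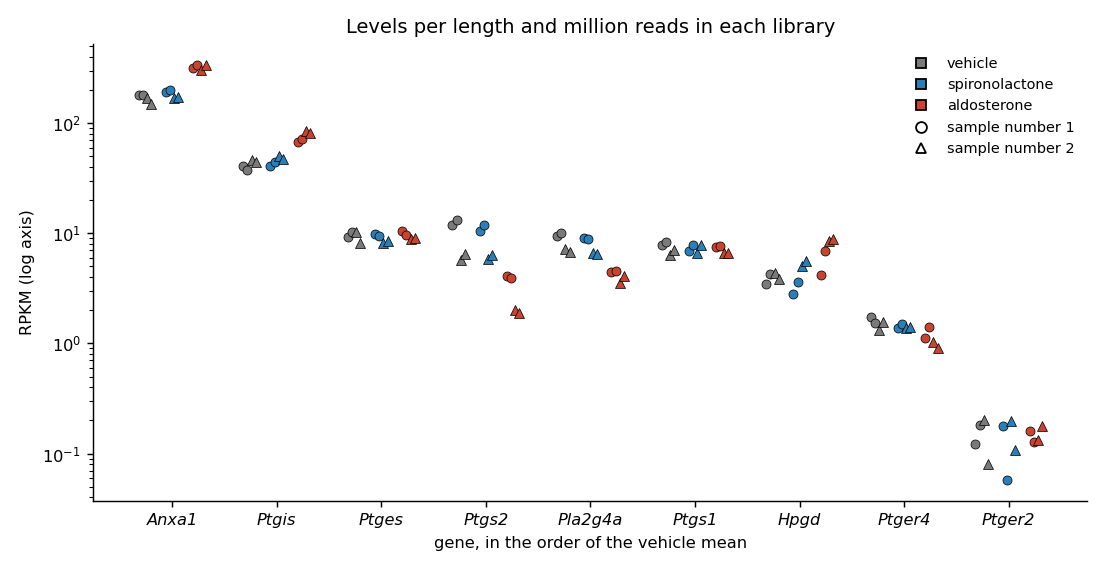
RPKM on a log axis for the 9 genes, ordered by their vehicle mean, with 1 point per library coloured by treatment and shaped by sample number. Anxa1 at 169 and Ptgis at 42.4 RPKM with vehicle stand above a group of 4 genes between 7.42 and 9.50 RPKM, and Ptger2 is lowest at 0.146 RPKM.

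Between aldosterone and spironolactone, the calls were again 3 higher and 2 lower of the 9 genes, for the same genes by name (Anxa1, Ptgis and Hpgd higher, Ptgs2 and Pla2g4a lower). Of all 27631 genes, 4.93% were higher and 3.96% lower. This comparison shares the aldosterone libraries with the one against vehicle, so the pair is not independent. Between spironolactone and vehicle, limma called 0 of the 9 genes and 0 of all 27598 genes (0.0% in each direction), with 0 of the 9 and 1251 of all genes (4.53%) at an unadjusted p under 0.05. With the replicate block, 3 of the 9 had an unadjusted p under 0.05, which were Anxa1, Ptgis and Pla2g4a (limma unadjusted p = 0.0070, 0.016 and 0.043), and the adjusted p of each was 0.35 or higher. The share of all genes at an unadjusted p under 0.05 is not given for the blocked fit, so this count lacks a background. DESeq2 and edgeR also called 0 of the 9, and of all genes edgeR called 0 and DESeq2 called 12 higher and 1 lower. The fitted log2 fold changes of the 9 genes ran from -0.16 (Ptger2) to 0.12 (Ptgis). For Ptgs2 the 95% interval was -0.59 to 0.44, and for Anxa1 it was -0.04 to 0.27. In the fit with the replicate block these intervals were -0.20 to 0.04 for Ptgs2 and 0.03 to 0.19 for Anxa1.

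The sample number was a second source of difference in these genes. Over all 12 libraries with treatment in the fit, 2 of the 9 genes were higher in sample number 2 and 5 were lower, against 5.07% and 5.79% of all 28995 genes. Ptgs2 was lower by a log2 fold change of -1.01 (SE 0.05, limma adjusted p = 1.4e-13) and Pla2g4a by -0.43 (SE 0.05, limma adjusted p = 9.9e-08). With only 2 sample numbers, these p-values measure the spread between plates and not that between mice or sample numbers. Ptgs1, Ptges and Anxa1 were lower by smaller amounts, with log2 fold changes of -0.20, -0.18 and -0.17. Hpgd was higher by 0.48 and Ptgis by 0.19 on the log2 scale. Pla2g4a, Ptgs2, Ptgis and Hpgd thus had the same sign in the sample-number and the aldosterone differences, and Anxa1 had opposite signs. Over all treatments, mural and smooth muscle markers summed to 542 to 753 CPM in sample number 1 and 378 to 555 in number 2. These ranges overlapped and were not compared by a test, and the part of such cells in these results was not tested. For the effect of aldosterone by sample number, 0 of the 9 genes were called, and 4 of all genes (0.0146%).

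**Figure D4:**
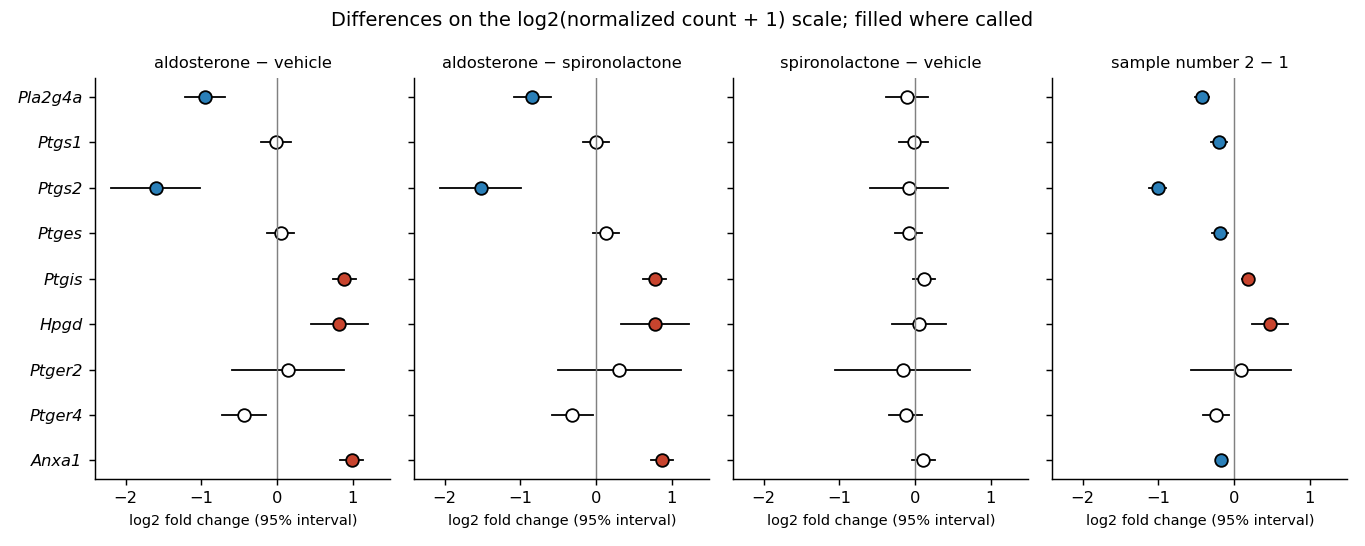
Fitted log2 fold change (x axis, log2(normalized count + 1) scale) with its 95% interval for the 9 genes in the 3 treatment comparisons and between the sample numbers. Filled points passed the adjusted p threshold, red for higher and blue for lower. Both aldosterone panels show Ptgis, Hpgd and Anxa1 higher and Pla2g4a and Ptgs2 lower, and the spironolactone panel has no filled point.

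The wider pathway was read from lists of 71 further genes, of which 58 were tested between aldosterone and vehicle. Of these, 12 rose and 1 fell, with a median log2 fold change of 0.15, where 5.68% of all genes were higher and 4.74% lower and the median of all genes was -0.01. These shares, or 9.65% and 8.09% of the better expressed genes, are the background for each list below. The lists were written with earlier results of these data known, so counts beside the background describe the lists and do not test them. For counts at an unadjusted p under 0.05 between aldosterone and vehicle, no share of all genes is given here. Between aldosterone and spironolactone 11 rose and 0 fell of 62 tested, where 4.93% of all genes were higher and 3.96% lower. Between spironolactone and vehicle limma called 0 of 63 and 0 of all genes. At a limma unadjusted p under 0.05 were 3 of the 63, beside 4.53% of all genes. These 3 were S100a6, S100a10 and S100a11. With the replicate block S100a6, S100a10 and Anxa8 were called higher with spironolactone, by log2 fold changes of 0.29, 0.20 and 0.26 (limma adjusted p = 0.00058, 0.038 and 0.00061).

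Among phospholipases A2, 2 of 14 rose and 0 fell. Pla2g15, a lysosomal phospholipase A2, had 1077 ± 42.4 normalized counts with vehicle and 1679 ± 156 with aldosterone (log2 fold change 0.64, limma adjusted p = 7.8e-06). Pla2g5, a secreted form named here after its values were seen, had 0 to 3 reads per vehicle library and 2 to 26 per aldosterone library, too few for a firm fold change (limma adjusted p = 0.029). The terminal synthases other than Ptges and Ptgis were not called by limma, at 0 of 7 (2 at an unadjusted p under 0.05). Ptges2 was the single one called higher with the replicate block (log2 fold change 0.21, limma adjusted p = 0.041).

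Among genes of prostaglandin breakdown and transport, 3 of 7 rose and 0 fell. Slco3a1, an organic anion transporter that accepts prostaglandins, went from 942 ± 24.1 to 2405 ± 247 normalized counts (log2 fold change 1.35, SE 0.07, limma adjusted p = 1.3e-09). Slco2a1, the prostaglandin uptake transporter, had 2301 ± 191 with vehicle and 3186 ± 209 with aldosterone (log2 fold change 0.47, limma adjusted p = 0.00016). Ptgr3, a prostaglandin reductase gene listed in the tables as Zadh2, rose by a log2 fold change of 0.37 (limma adjusted p = 0.00025). The export pump gene Abcc4 (log2 fold change -0.09) and the reductase genes Ptgr1 (0.17) and Ptgr2 (0.08) were not called. The carbonyl reductase gene Cbr3 was called higher with the replicate block alone (log2 fold change 0.21, limma adjusted p = 0.046).

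Of 7 further prostanoid receptor genes, 0 rose and 1 fell. This was Ptgfr, the prostaglandin F2α receptor, with 175 to 205 normalized counts with vehicle and 116 to 159 with aldosterone (log2 fold change -0.44, limma adjusted p = 0.034). It was not called against spironolactone (log2 fold change -0.29, limma adjusted p = 0.20). The prostacyclin receptor gene Ptgir had a mean of 85.5 with vehicle and 82.2 with aldosterone, so no change was called in the receptor of the product of Ptgis. The thromboxane receptor gene Tbxa2r was called higher in the blocked fit (log2 fold change 0.20, limma adjusted p = 0.016). Ptger3, another prostaglandin E2 receptor gene, is named here after its values were seen. It had 21.7 to 28.0 normalized counts with vehicle, 19.1 to 24.3 with spironolactone and 31.2 to 56.3 with aldosterone. It was not called against vehicle (log2 fold change 0.67, limma adjusted p = 0.14, blocked 0.089). Against spironolactone (0.84) the blocked fit alone called it (limma adjusted p = 0.035).

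The annexins with their S100 partners and the formyl peptide receptors had 7 of 14 genes higher and 0 lower, beside 5.68% and 4.74% of all genes, with a median log2 fold change of 0.32 beside -0.01. S100a10, the partner of annexin A2, went from 4680 ± 366 to 9856 ± 1007 normalized counts (log2 fold change 1.07, SE 0.07, limma adjusted p = 4.4e-08). S100a6 rose by 0.85, S100a11, the partner of annexin A1, by 0.31, and the annexin genes Anxa4, Anxa3, Anxa2 and Anxa5 by 0.51, 0.47, 0.36 and 0.31 on the log2 scale. None of these annexins reached the 0.99 of Anxa1, and Anxa6, Anxa7, Anxa8, Anxa9, Anxa11 and Anxa13 were not called. Anxa8 (log2 fold change 0.32, limma adjusted p = 1.9e-06) and Anxa11 (0.17, limma adjusted p = 0.018) were called higher than vehicle in the blocked fit. Against spironolactone, Anxa8 was called by neither fit (log2 fold change 0.07, limma adjusted p = 0.85, blocked 0.44). S100a11 was called there by the blocked fit alone (0.17, limma adjusted p = 0.12, blocked 0.0064). Anxa11 was called there without the block too (0.21, limma adjusted p = 0.026). Of the receptors, Fpr1 had a mean of 3.23 normalized counts with vehicle and 1.55 with aldosterone, and no other formyl peptide receptor had a row. In the lipoxygenase branch, which makes leukotrienes from the same precursor, limma called 0 of 9 genes (2 at an unadjusted p under 0.05), with 0 called by the blocked fit too. Alox5 and its activating protein gene Alox5ap had means of 12.3 and 11.5 normalized counts with vehicle.

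**Figure D5:**
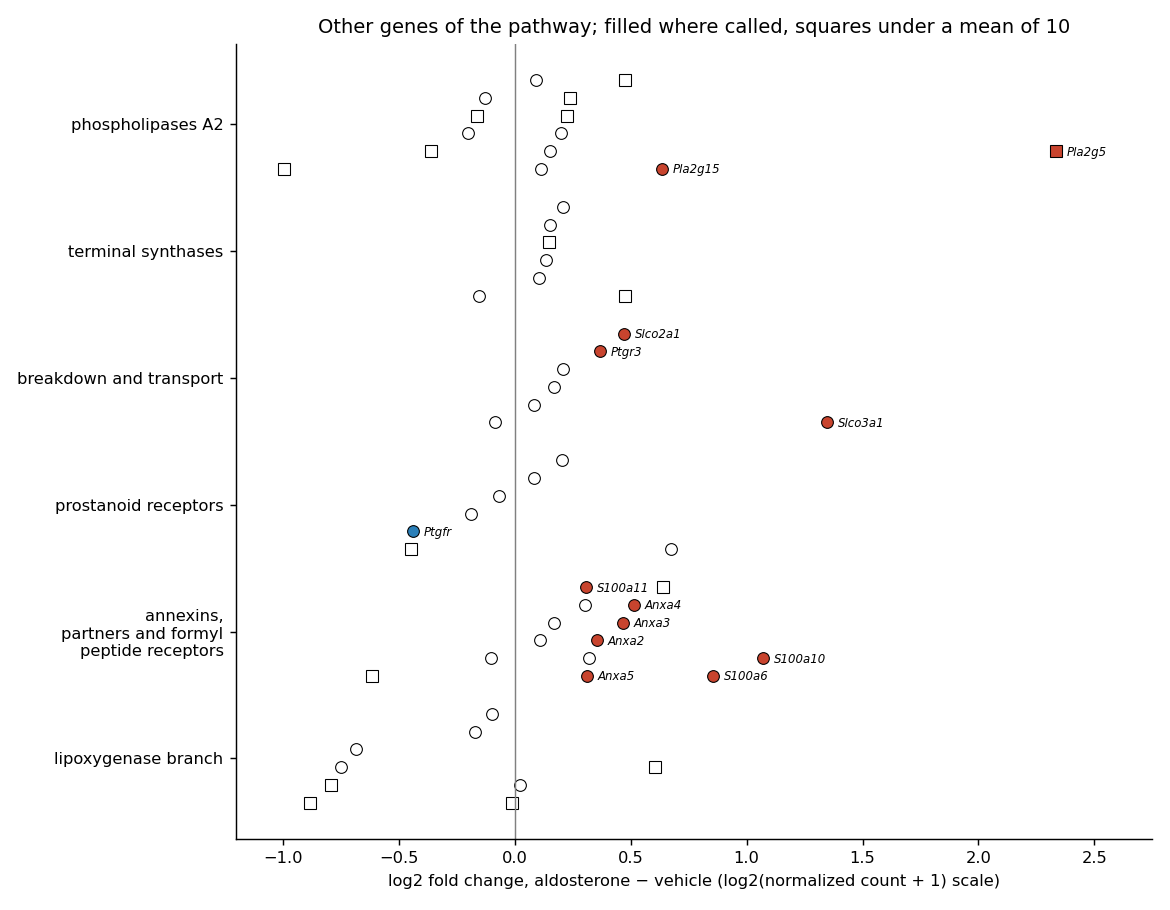
Fitted log2 fold change between aldosterone and vehicle (x axis) for the 58 other genes tested, by list (y axis, points spread within a list for legibility). Filled points passed the adjusted p threshold, red for higher and blue for lower, and squares have a mean under 10 normalized counts. The 12 red points include Slco3a1 at 1.35 and S100a10 at 1.07, and the blue point is Ptgfr at -0.44.

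Ptgs2 and Pla2g4a are neighbours, with the start of Pla2g4a at -138.741 kb from that of Ptgs2, so the genes starting within 1 Mb of Ptgs2 on either side were read as well, a choice made after the values were seen. The falls of Ptgs2 and Pla2g4a prompted the choice and are not counted. Of the 12 other genes tested there, 1 was called, which was Hmcn1, lower (893.404 kb away, log2 fold change -0.44, limma adjusted p = 0.0023), where 4.74% of all genes were lower. Ptgs2os, an antisense lncRNA that starts 0.068 kb from Ptgs2 on the other strand, had 33.1, 29.6, 23.4 and 13.0 normalized counts with vehicle. With aldosterone it had 17.0, 4.9, 9.3 and 7.9. The groups overlapped, and its log2 fold change of -1.30 (SE 0.42) was not called (limma adjusted p = 0.061), but it was with the replicate block (limma adjusted p = 0.021). The abundant neighbours Tpr and Odr4 had log2 fold changes of -0.12 and 0.07 and were not called. With the replicate block Tpr was called lower (limma adjusted p = 0.044) and Prg4, a lubricin gene in the same stretch, higher (log2 fold change 0.26, limma adjusted p = 0.00012). By the blocked fit 8.68% of all genes were higher and 8.02% lower than vehicle.

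Of 11206 genes averaging 100 or more normalized counts, those whose log2 profile over the 12 libraries lay nearest to Ptgs2 were Acta1, Cxcl14 and Car8. The root mean square differences of these 3 profiles from Ptgs2 were 0.24, 0.26 and 0.29, where the profile of Ptgs2 itself had a root mean square of 0.90. Acta1, the skeletal alpha-actin gene, had a log2 fold change of -1.26 between aldosterone and vehicle and of -0.71 between the sample numbers. Cxcl14, a chemokine gene, had -1.15 and -1.09, and Car8, a carbonic anhydrase-related gene, -1.09 and -0.87. The nearest to Anxa1 were Gpnmb, Rras2 and Ly6a, at 0.07, 0.09 and 0.09 against 0.45 for Anxa1 itself. Their log2 fold changes with aldosterone were 0.87, 0.86 and 1.02. The genes near Ptgs2 and Anxa1 were picked by their profiles over these same libraries. Like differences with aldosterone and sample number thus follow from the choice.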

How the data were processed

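Poly(A) RNA of 12 libraries (4 each with vehicle, spironolactone or aldosterone) was analysed from 3 pairwise tables. The authors deposited gene counts divided by a library size factor (signal values, called normalized counts here), with gene annotation and lengths. Their own fold changes and p-values in the same tables were not used. The submitters' processing notes name HISAT2 2.0.5, featureCounts 1.5.0-p3 and mm39, whereas the methods text names mm9; the starts of 0 of 9 genes matched NCBIM37 or GRCm38.p6. Strand use in counting was not given in the sources used here.

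Reads were recovered from the step of each column. In 24 columns 100% of values were whole multiples (tolerance 0.01), the same libraries in different tables gave the same reads, and 2 columns had a step too near 1, so the reads of the other table were used. Totals were 19136923 to 30219185 per library. RPKM and values across 12 libraries (median-of-ratios size factors) come from these reads. Intervals cover the spread between libraries only, which are plates of 2 mice, so p-values measure the spread between these plates.

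The plan chose limma (3.58.1, R 4.3.3) with a variance trend on log2(normalized count + 1) for every gene, with Benjamini-Hochberg adjustment over the table and a call at 0.05. On the recovered reads, edgeR 4.0.16 and DESeq2 1.42.0 were run as alternatives. Scripts were tested on simulated data. Same-numbered libraries of different treatments deviated together (24 pairs, correlation 0.134 to 0.283 over 15276 genes), so the sample number pairs the libraries. Named genes are the 10 listed, the steroid targets Fkbp5, Per1 and Tsc22d3, list genes with an adjusted p of at most 0.05 between aldosterone and vehicle and a mean of at least 10, and the 3 genes nearest to each of 2 members; others are said to be chosen later. The members and lists were chosen with earlier results of these data known. Alternatives were a pseudocount of 0.5, a minimum mean of 10, TMM scaling, the replicate block, plates summed, single sample numbers and leaving out each library.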

Additional observations from a re-analysis of the deposited data

Results flagged for a closer look

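The 240.3 normalized counts of Ptger4 in the second library of sample number 1 with spironolactone stood apart from the other 3 of that group (216.8 to 218.8). Of 27 groups of 4 libraries tested in this way, 1 was picked out, and chance alone picks about 1 in 20. Without this library the log2 fold change of Ptger4 between aldosterone and spironolactone was -0.28 (limma adjusted p = 0.40), and with it -0.32 (0.17).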

How the results depend on the processing

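With a pseudocount of 0.5, a minimum mean of 10, TMM scaling or edgeR, the calls stayed at 3 higher and 2 lower of the 9 genes in both aldosterone comparisons. The replicate block added Ptger4 (3 lower) in both, and DESeq2 added it against vehicle. With plates summed, 3 were higher and 1 lower against vehicle, and 2 higher and 1 lower against spironolactone. Ptgs2 lost its call in both, and Hpgd against spironolactone. Sample number 1 alone gave 0 higher and 0 lower in each. Sample number 2 alone gave 2 higher and 1 lower against vehicle, without Anxa1 (limma adjusted p = 0.051) and Pla2g4a (0.070), and 3 higher and 1 lower against spironolactone, without Pla2g4a (0.073). These fits have few residual degrees of freedom, and sample number 1 alone called 15 higher and 2 lower of all genes. Counts over all genes are not given here for plates summed or sample number 2 alone, so those counts of the 9 genes lack a background. Leaving out 1 library gave 1 to 3 lower and 2 to 3 higher in each aldosterone comparison. Of all genes, 993 to 1262 were then higher and 773 to 984 lower than vehicle, against 1553 and 1294 with every library. In the comparison with spironolactone, 897 to 1037 were higher and 665 to 828 lower, against 1361 and 1093. The block moved the counts against vehicle to 2371 higher and 2192 lower. Between spironolactone and vehicle the block called 63 higher and 34 lower of all genes, DESeq2 12 higher and 1 lower, and 0 of the 9 in every fit.

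Log2 fold changes near 0, none of them called, changed sign. With sample number 1 alone Ptger2 was -0.0017 against vehicle with aldosterone and Hpgd -0.27 with spironolactone. With sample number 2 alone Ptgs1 was 0.017 and Ptges -0.010 with aldosterone, Ptgs1 0.11, Ptgs2 0.0047 and Ptger2 0.19 with spironolactone, and Ptgs1 -0.090 between the steroids. There, Ptgs1 was also -0.0013 with edgeR, -0.00058 with DESeq2 and -0.0053 with plates summed. Leaving out 1 library gave, for aldosterone against vehicle, Ptgs1 -0.088 to 0.043, Ptges -0.024 to 0.089 and Ptger2 -0.11 to 0.31. Against spironolactone it gave Ptgs1 -0.044 to 0.046 and Ptger2 -0.018 to 0.53. For spironolactone against vehicle it gave Ptgs1 -0.088 to 0.043, Ptgs2 -0.28 to 0.12, Hpgd -0.090 to 0.23 and Ptger2 -0.41 to 0.16. The cause was not tested.

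The libraries are plates of 2 mice, so differences between animals rest on 2. Ptger2, Ptgs2os, Ptgs2os2 and Pla2g5 are limited by their few reads. No protein, prostaglandin or enzyme activity was measured.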
